A study of Mus musculus with 14 samples.

Results

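This comparison sets mouse epiblast-like cells (EpiLCs) that were GFP-negative and RFP-positive against embryonic stem cells (ESCs) of the same reporter line, grown in serum with LIF and sorted as GFP-positive and RFP-positive. The members are the arrays whose titles name these 2 populations, 2 EpiLC arrays and 2 arrays of RFP-positive serum ESCs, 4 of the 14 arrays in the series. All cells were of C57/B6 background. Both populations carry the same pair of Oct4 (Pou5f1) transgenes, written O4-DE-GFP/O4-PE-RFP in the labels: GFP driven by the distal enhancer, and tdTomato (RFP) in an Oct4 genomic fragment that lacks the distal enhancer and keeps the proximal one. The line came from a blastocyst of crossed transgenic mice, so it is 1 line. RNA was taken from cells sorted by flow cytometry and hybridised to Illumina mouse bead arrays, 1 colour per array. The EpiLC culture recipe and the use of feeder cells are not given in the sources used here. The labels do not say that the 2 arrays of a group came from separate cultures, so the p-values measure the spread between arrays, which may be technical.

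The other 5 groups, also of 2 arrays each, were used to estimate the spread and to give levels for orientation. They were epiblast stem cells (EpiSCs) derived from epiblasts, GFP-positive RFP-negative cells of the same line from serum and LIF, GFP-positive RFP-negative cells of that line in N2B27 with LIF and 2i (an inhibitor of GSK3 and one of MEK), serum ESCs of a single-reporter line, and mouse embryonic fibroblasts (MEFs).

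Mouse pluripotent cells are held in culture in states that resemble successive stages of the embryo. Naive ESCs resemble the epiblast before implantation and depend on LIF-STAT3 signalling and on factors such as Esrrb, Klf4 and Tbx3. EpiLCs are made from ESCs, usually with FGF2 and activin, and resemble the epiblast soon after implantation; EpiSCs resemble a later epiblast. Oct4 is kept in all of these states, and its transcription is known to move from the distal to the proximal enhancer on the way.

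The 2 EpiLC arrays detected 13163 and 13021 probes and the 2 arrays of RFP-positive serum ESCs 13515 and 13243, of 25697. Median scanner intensities were 148.6 and 142.6 on the EpiLC arrays and 171.6 and 166.2 on the serum arrays, and 313.5 and 316.8 on the EpiSC arrays. Pearson's r across genes was 0.9973 between the EpiLC arrays, 0.9976 between the serum arrays and 0.9326 between the group means. Levels below are background-corrected, quantile-normalised log2 signals, 1 probe per gene, and a difference is EpiLC minus RFP-positive serum ESC on the log2 scale with the standard error (SE) of 1 limma model over all 14 arrays. Calls used a threshold of 0.05 on p-values adjusted by the Benjamini-Hochberg method over all genes. The EpiSC arrays differed from each other in several gene groups, fibroblast markers included (mean level over the 19 tested markers 6.35 and 8.04). Since the model pools the spread of all groups, this widens the SE of those genes here.

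Of 10481 genes tested, 5765 (55%) were called: 2968 were higher (28.3%) and 2797 lower (26.7%) in EpiLCs. At least 2-fold changes were called for 1001 higher genes (9.55%) and 962 lower genes (9.18%). The median difference over all genes was 0.02, 58.6% of genes differed by less than 0.5, and the median half-width of the 95% interval of a difference was 0.289. The shares called set the background for the counts below: a list with about 28.3% of its members higher and 26.7% lower behaved like all genes. A total of 283 genes were detected on both EpiLC arrays and on neither serum array, and 449 the other way round.

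**Figure D1:**
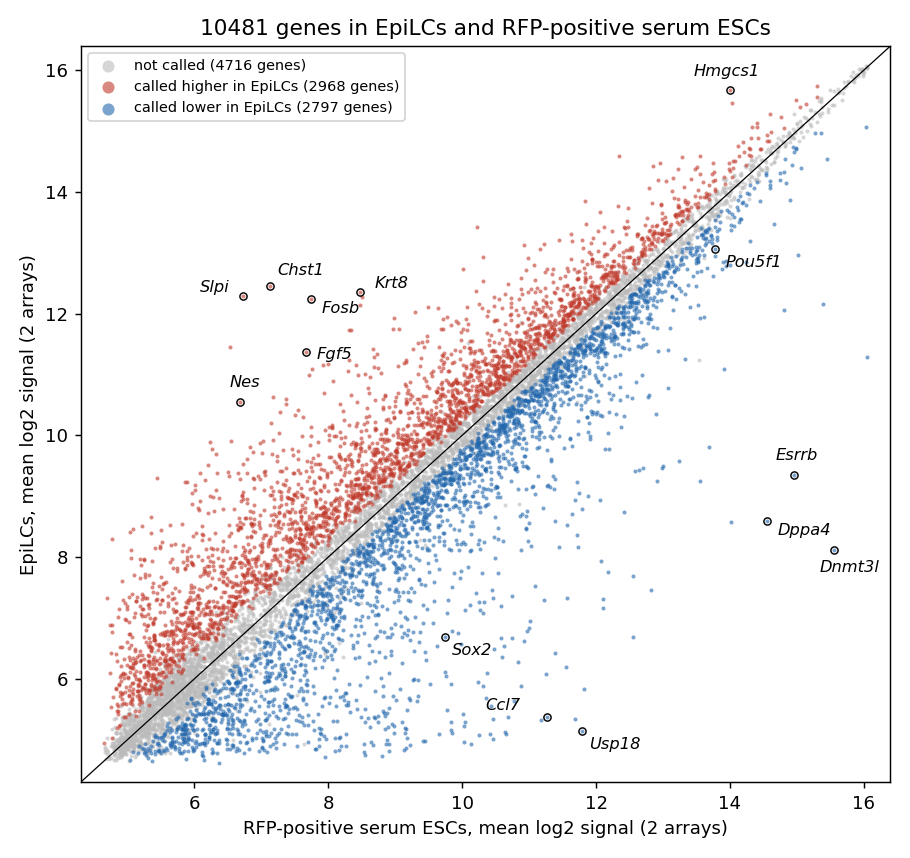
Mean log2 signal of 10481 genes in EpiLCs (vertical axis) and in RFP-positive serum ESCs (horizontal axis), 2 arrays each; red points were called higher and blue points lower in EpiLCs, grey points were not called, and the line marks equal levels. The 962 genes called lower by at least 2-fold reach down to the detection floor in EpiLCs, with Dnmt3l, Dppa4 and Esrrb among the brightest in the serum ESCs.

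Oct4 was modestly lower in EpiLCs, while other core pluripotency genes moved by very different amounts. Pou5f1, whose elements drive both reporters, read 13.01 and 13.13 in EpiLCs, against 13.76 and 13.80 in RFP-positive serum ESCs. The EpiLC arrays lay below both serum arrays, and the difference was -0.71 (SE 0.12, adjusted p = 0.00088). Sox2, the partner of Oct4 at many of its sites, read 6.76 and 6.63 in EpiLCs, against 9.76 and 9.71 in the serum ESCs, and the arrays of the groups were far apart (difference -3.04, SE 0.15, adjusted p = 2.2e-07). Dppa4, a nuclear protein of pluripotent cells, read 8.56 and 8.63 in EpiLCs, against 14.55 and 14.55 in the serum ESCs. Its difference of -5.96 had an SE of 1.21 (adjusted p = 0.0021), since Dppa4 read 11.07 and 5.81 on the EpiSC arrays; without that group the SE was 0.07. Nanog, the homeodomain factor of the pluripotency circuit, was the 1 core gene called higher, at 13.64 and 13.76 in EpiLCs, against 13.45 and 13.29 in the serum ESCs (difference 0.33, adjusted p = 0.012). That call was lost without EpiLC array 2 (adjusted p = 0.088) and without serum array 2 (0.096), which leaves 0 core genes higher.

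Across the 10 tested core genes, of 11 listed, 1 was higher and 7 were lower in EpiLCs, with a median difference of -0.67, beside 28.3% and 26.7% of all genes. Among the 7, the co-repressor Trim28 differed by -0.91 (adjusted p = 3.7e-06), the chromatin factor Utf1 by -0.86 (adjusted p = 0.0036) and the zinc finger factor Sall4 by -0.63 (adjusted p = 0.001). Lin28a, the RNA-binding protein that blocks let-7 maturation, and L1td1, an RNA-binding protein derived from a transposon, were not called (0.29 and -0.37, adjusted p = 0.082 and 0.21). Lin28a was called higher without background correction (adjusted p = 0.04), which gives 2 core genes higher, and L1td1 was called lower without the EpiSC group (0.0043). In bulk RNA, fewer cells that express a gene and less RNA per cell cannot be told apart, here or in the groups that follow.

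Naive pluripotency genes were lower in EpiLCs almost without exception. Of the 16 tested, of 20 listed, 15 were called lower and 0 higher (limma; 0 were also higher at an unadjusted p under 0.05), with a median difference of -3.59; 10 of the 16 were still detected on both EpiLC arrays. Esrrb, an orphan nuclear receptor of the naive circuit, read 9.46 and 9.25 in EpiLCs, against 15.02 and 14.89 in RFP-positive serum ESCs (difference -5.60, SE 0.73, adjusted p = 0.00013). Nr5a2, a nuclear receptor that binds the Oct4 promoter region, was detected on neither EpiLC array and read 10.75 and 10.55 in the serum ESCs, so it was at least 29.1-fold lower (adjusted p = 3.2e-06). Tcl1, a coactivator of AKT kinase, was likewise below detection in EpiLCs and at 10.47 and 10.45 in the serum ESCs, at least 25.4-fold lower (adjusted p = 5.1e-06).

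The other leading naive genes differed in how much signal was left. Dppa3 (Stella), a protein that protects maternal methylation in the zygote, read 6.39 and 6.00 in EpiLCs, against 11.57 and 11.53 in the serum ESCs (difference -5.36, SE 0.11, adjusted p = 1.6e-09). Tbx3, a T-box factor downstream of LIF, read 4.95 and 5.22 on a probe not detected in EpiLCs, against 10.38 and 10.46 in the serum ESCs (adjusted p = 1.8e-08), so the size of its fall is not given. Dppa5a, an RNA-binding protein of early embryos, was very bright in the serum ESCs and read 11.35 and 11.24 in EpiLCs, against 16.06 and 16.03 in the serum ESCs (difference -4.75, SE 1.12, adjusted p = 0.0052). Prdm14, a repressor of DNA methyltransferases in naive cells, was the 1 gene not called; it was detected on none of the 4 arrays.

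**Figure D2:**
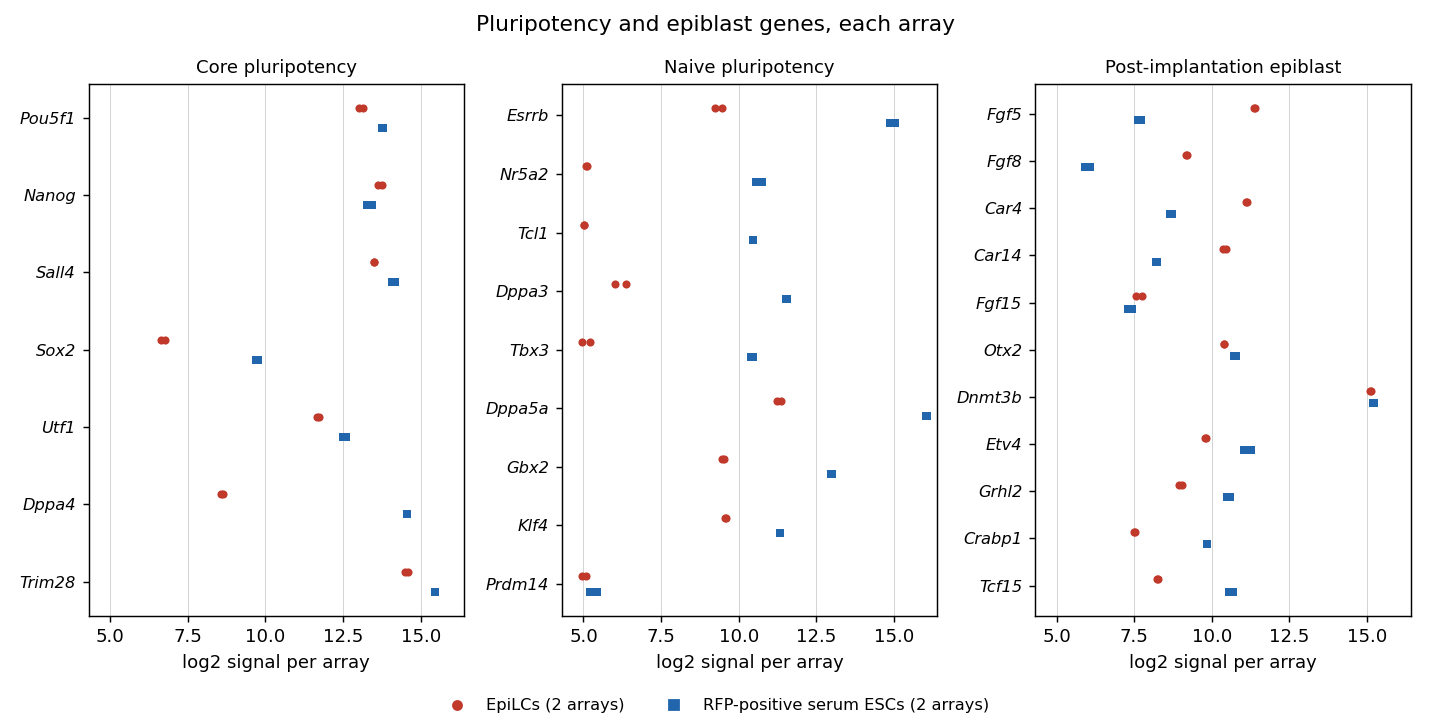
Log2 signal of named pluripotency and epiblast genes on each array, EpiLCs as red circles above RFP-positive serum ESCs as blue squares. Among the naive genes, Esrrb and Dppa5a are separated by 4.75 or more, and Gbx2, Klf4 and Prdm14 by less. Pou5f1 and Nanog are separated by less than 1, and Otx2 and Dnmt3b nearly coincide.

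Post-implantation epiblast genes split in EpiLCs, with more higher than lower. Of 21 tested, of 27 listed, 11 were higher and 5 lower (median 0.96). Fgf5, the standard marker of the early post-implantation epiblast, read 11.37 and 11.38 in EpiLCs, against 7.62 and 7.70 in RFP-positive serum ESCs (difference 3.71, SE 0.14, adjusted p = 4.4e-08). Fgf8, a growth factor of the epiblast and primitive streak, read 9.15 and 9.21 in EpiLCs, against 5.92 and 6.09 in the serum ESCs (difference 3.18, SE 0.21, adjusted p = 1.3e-06). Both were clear of the serum arrays. The carbonic anhydrases Car4 and Car14 differed by 2.43 and 2.18 (adjusted p = 1.3e-07 and 2.1e-05).

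Several genes often used to mark the same stage were not higher than in the RFP-positive serum ESCs. Otx2, a homeodomain factor that redirects Oct4 to new enhancers in primed cells, read 10.40 and 10.40 in EpiLCs, against 10.77 and 10.71 in the serum ESCs (difference -0.34, SE 0.15, adjusted p = 0.077); fitted without the EpiSC group it was called lower (adjusted p = 0.0054). Dnmt3b, a de novo DNA methyltransferase, read 15.12 and 15.10 in EpiLCs, against 15.19 and 15.21 in the serum ESCs (-0.09, adjusted p = 0.27). Fgf15, Sfrp2 and Nkx1-2 were not called either (0.29, 0.22 and 0.20). Among the 5 lower genes were Tcf15, a helix-loop-helix factor described in ESCs that are about to leave the naive state (8.24 and 8.27 in EpiLCs, against 10.54 and 10.67 in the serum ESCs; -2.35, adjusted p = 0.00014), and Crabp1, a carrier of retinoic acid (-2.34, SE 0.65, adjusted p = 0.012), which averaged 12.3 in MEFs. Without EpiLC array 2, serum array 1 or serum array 2 the count of lower genes was 3, and Crabp1 was at adjusted p = 0.052, 0.05 and 0.051.

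Nodal and activin signalling genes moved in both directions: of 13 tested, 6 were higher and 4 lower (median 0.25). Smad3, a signal-transducing Smad, rose, at 10.26 and 10.08 in EpiLCs, against 8.31 and 8.31 in the serum ESCs (1.86, adjusted p = 5.7e-05), as did the protease Furin, which processes Nodal (0.98), and the receptor Acvr2b (0.86). The antagonist and target Lefty2 fell to 8.87 and 9.0 in EpiLCs, against 11.69 and 11.68 in the serum ESCs (-2.75, SE 0.49, adjusted p = 0.001), and the ligand Gdf3 differed by -1.67 (adjusted p = 0.00018). Nodal itself read 8.10 and 8.20 in EpiLCs, against 7.93 and 7.86 in the serum ESCs (0.25, adjusted p = 0.45, and called higher without the EpiSC group at 0.0073), and neither the inhibitor Fst nor Smad2 was called. With any 1 of the 4 arrays left out, 2 genes instead of 4 were called lower, and the co-receptor Tdgf1 (-0.74, adjusted p = 0.033) was then at 0.08 to 0.13.

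Of 14 tested FGF-ERK targets, 1 was higher and 4 lower, 35.7% called beside 55% of all genes; without the EpiSC group 3 were higher and 5 lower. Spry4, a feedback inhibitor of the pathway, read 6.34 and 6.58 in EpiLCs, against 9.28 and 9.29 in the serum ESCs (-2.82, adjusted p = 1.2e-06). The ETS factors Etv4 and Etv5 and the ERK phosphatase Dusp4 were lower too (-1.34, -0.88 and -1.25), and the receptor Fgfr1 was the 1 gene higher (1.04, adjusted p = 9.1e-05). Dusp6, Spred1 and Egr1, which also respond to ERK, were not called (0.14, -0.08 and 0.14).

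Wnt targets and antagonists were mostly lower, with 7 lower and 3 higher of 11 (median -0.59). Notum, a secreted enzyme that inactivates Wnt ligands, was detected on neither EpiLC array and read 9.27 and 9.02 in the serum ESCs, at least 10.2-fold lower (adjusted p = 3e-09). The homeobox gene Cdx1 was below detection in EpiLCs as well, at least 6.18-fold lower (adjusted p = 3e-06), and the zinc finger factor Sp5 differed by -1.40 (adjusted p = 0.0026). Apcdd1, a membrane-bound Wnt inhibitor, was higher (0.65, adjusted p = 4e-04).

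Genes of the LIF-STAT3 axis were lower in EpiLCs: 8 of 13 tested were called lower and 2 higher (median -0.97). Stat3, the transcription factor that LIF activates, read 8.80 and 8.81 in EpiLCs, against 11.27 and 11.13 in RFP-positive serum ESCs (-2.39, SE 0.11, adjusted p = 1.1e-07). The LIF receptor Lifr differed by -2.42 (adjusted p = 7.6e-06). The STAT3 targets Bcl3, Gbx2, Klf4 and Socs2 were lower by different amounts, at -3.52, -3.50, -1.76 and -1.17. The 2 genes higher were the phosphatase Ptpn11 (0.44, adjusted p = 0.00054) and Junb (0.28, adjusted p = 0.047), and the call on Junb was lost without any 1 of the 4 arrays (adjusted p = 0.1 to 0.17), which leaves 1.

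BMP and Id genes gave 5 higher and 3 lower of 10. The ligand Bmp4 read 7.31 and 7.29 in EpiLCs, against 11.16 and 11.28 in the serum ESCs (-3.92, SE 0.39, adjusted p = 2.1e-05). The BMP antagonist Grem1 differed by -3.99 (SE 0.68, adjusted p = 0.00075) and read 12.2 on average in MEFs. Genes downstream of BMP went both ways: Id3 was lower (-0.71, adjusted p = 0.00061; named after its values were seen), while Id2 was higher, at 8.48 and 8.51 in EpiLCs, against 6.83 and 6.53 in the serum ESCs (1.81, adjusted p = 0.00013), as were the inhibitory Smad6 (1.38) and the receptor Bmpr1a (0.90). Id1 (0.86, adjusted p = 0.016) lost its call without EpiLC array 1 (0.076) or serum array 2 (0.079).

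The largest fitted fall among called genes was that of Dnmt3l, the catalytically inactive cofactor of the de novo DNA methyltransferases. It read 8.18 and 8.04 in EpiLCs, against 15.59 and 15.54 in RFP-positive serum ESCs (difference -7.45, SE 0.90, adjusted p = 7.5e-05). In the EpiSCs, where the arrays disagreed, it read 11.03 and 7.14. Among 6 tested genes of DNA methylation and demethylation, 4 were lower and 1 higher: the maintenance methyltransferase Dnmt1 (-0.60), its partner Uhrf1 (-0.31) and the NuRD subunit Mbd3 (-0.64) were lower, and the thymine-DNA glycosylase Tdg, which excises oxidised methylcytosine, was higher (0.55, adjusted p = 0.00053). The call on Uhrf1 was lost without EpiLC array 1 (adjusted p = 0.087) or serum array 2 (0.058).

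Germ-cell and 2-cell-stage genes were lower in EpiLCs, with 12 lower and 0 higher of 14 (median -2.22); none of the 14 was higher at an unadjusted p under 0.05. Tfap2c, a factor of germ cells and trophoblast, averaged 9.46 ± 0.02 in EpiLCs, against 12.98 ± 0.02 in the serum ESCs (SD, n = 2 each; difference -3.52, SE 0.09, adjusted p = 3.5e-09). Tex19.1, which restrains retrotransposons, differed by -4.17 (SE 0.86, adjusted p = 0.0024). The homeobox gene Rhox9 and the RNA-binding protein Nanos3 were detected on neither EpiLC array and were at least 8.07-fold and 5.58-fold lower (adjusted p = 1.3e-09 and 3e-09).

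Markers of other lineages changed piecemeal. Of 13 tested genes of the primitive streak and mesendoderm, 3 were higher and 3 lower. Wnt3, a ligand that starts the streak, was detected on neither serum array and read 7.37 and 7.29 in EpiLCs, at least 3.07-fold higher (adjusted p = 7.4e-07), and the T-box gene Eomes was higher by 0.58 (adjusted p = 0.0069, and 0.062 without EpiLC array 2). Among 12 extraembryonic endoderm markers, 1 was higher and 3 lower, and Gata6, Sox17, Ttr and Foxa1 were detected on none of the 4 arrays. The laminin chain Lama1 read 6.91 and 7.24 in EpiLCs, against 10.29 and 10.33 in the serum ESCs (-3.24, adjusted p = 3.2e-06). Pdgfra, a growth factor receptor of primitive endoderm and of fibroblasts, was below detection in EpiLCs, at least 4.2-fold lower (adjusted p = 0.0019), and averaged 12.4 in MEFs. Of 7 trophoblast markers, 2 were higher and 4 lower; Gata3 was higher by 2.11 (SE 0.47, adjusted p = 0.0039) and Tead4 lower by a difference of -1.93 (adjusted p = 1.9e-07). Neural markers gave 2 higher and 1 lower of 7. Nes, the intermediate filament nestin, read 10.50 and 10.61 in EpiLCs, against 6.52 and 6.85 in the serum ESCs (3.87, SE 0.17, adjusted p = 1.2e-07), and the microtubule protein Map2 was higher by 0.49, although a dimmer probe of it was called lower. The 1 gene lower, Ncam1, was measured by a probe detected on none of the 4 arrays. Leaving out EpiLC array 2 brought trophoblast genes higher to 1, and leaving out EpiLC array 1 or serum array 2 brought neural genes lower to 0.

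Fibroblast and feeder markers were lower in EpiLCs. Of 19 tested, 9 were called lower and 1 higher (median -1.22), beside 26.7% and 28.3% of all genes. Without the EpiSC group in the model 14 were called lower. With 1 array left out the lower count came near the share of all genes, as given below. The mean level over the 19 was 6.67 and 6.69 on the EpiLC arrays, against 7.77 and 7.78 on the arrays of RFP-positive serum ESCs, with 12.2 and 12.3 on the MEF arrays. Col1a1, a chain of type I collagen, read 6.07 and 6.01 in EpiLCs, against 9.66 and 9.86 in the serum ESCs (-3.71, SE 0.82, adjusted p = 0.0034), and 15.7 on average in MEFs. The surface protein Thy1 read 9.38 and 9.18 in EpiLCs, against 11.43 and 11.34 in the serum ESCs (-2.10, adjusted p = 4.5e-07). The smooth muscle actin Acta2 and the proteoglycan Dcn differed by -2.30 and -1.78 but were not called (adjusted p = 0.11 and 0.091); without the EpiSC group both were (3.6e-09 and 1e-07). Twist1, a helix-loop-helix factor, was the 1 gene higher (1.77, adjusted p = 0.004). Without EpiLC array 1, serum array 1 or serum array 2, 5 genes instead of 9 were called lower, and the calls on Col6a1, Twist2 and S100a4 (adjusted p = 0.015, 0.017 and 0.02) were each lost without any 1 of the 4 arrays, at 0.053 to 0.09.

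Epithelial and adhesion genes were reshuffled, with the keratins Krt8, Krt18 and Krt19 at the top. Krt7, a keratin of the same list, was not called (0.06). Krt42, a keratin outside the list, was lower and is described below. Of 22 tested epithelial genes, 10 were higher and 7 lower (median 0.29). Krt8 read 12.44 and 12.28 in EpiLCs, against 8.42 and 8.52 in the serum ESCs (3.89, SE 0.30, adjusted p = 4e-06). Its partner Krt18 read 10.66 and 10.60 in EpiLCs, against 7.10 and 7.24 in the serum ESCs (3.46, SE 0.34, adjusted p = 2.1e-05). Krt19 was detected on neither serum array and was at least 5.98-fold higher (adjusted p = 6.8e-06), and the tight-junction protein Cldn3 was higher by 2.13 (adjusted p = 1.5e-06). The epithelial transcription factors Grhl2 and Ovol1 went the other way (-1.53 and -1.76), and E-cadherin, Cdh1, was not called (12.55 and 12.66 in EpiLCs, against 12.34 and 12.24 in the serum ESCs; 0.31, adjusted p = 0.081). Without serum array 2, 4 epithelial genes were called lower.

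In the mesenchymal list 5 genes were higher and 2 lower of 13. The 2 lower, Twist2 and S100a4, are also in the fibroblast list, as is Twist1, which was higher. Foxc1, a forkhead factor, was detected on neither serum array and at least 2.74-fold higher (adjusted p = 0.00029); Vim, vimentin, was not called (0.98, SE 0.44, adjusted p = 0.087), but was without the EpiSC group (6e-06). Leaving out serum array 1 or 2 gave 3 higher, EpiLC array 2 gave 2 higher, and any of the 4 gave 0 lower. Integrins, laminins and matrix genes gave 6 higher and 2 lower of 19, and 10 higher and 6 lower without the EpiSC group. Itga3, a laminin receptor subunit, averaged 12.73 ± 0.11 in EpiLCs, against 10.02 ± 0.03 in the serum ESCs (SD, n = 2 each; difference 2.71, SE 0.16, adjusted p = 6.9e-07). Its partner Itgb1 was higher by 1.36 and the basement-membrane collagen Col4a1 by 1.25 (adjusted p = 0.00082 and 0.0018), opposite to Lama1 above. Without EpiLC array 2, 1 gene of this list was lower.

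Immediate early genes, which serum and growth factors induce rapidly, were higher in EpiLCs. Of 18 tested, 13 were higher and 1 lower (median 1.02), and the mean level over the list was 10.8 and 10.7 on the EpiLC arrays, against 9.39 and 9.39 on the serum arrays. Fosb read 12.23 and 12.26 in EpiLCs, against 7.87 and 7.61 in RFP-positive serum ESCs (4.51, SE 0.27, adjusted p = 7.1e-07). Fos read 13.37 and 13.47 in EpiLCs, against 10.24 and 10.20 in the serum ESCs (3.20, SE 0.11, adjusted p = 2.1e-08). Jun, Atf3, also AP-1 partners, and the matrix protein Ccn1 were higher by 2.88, 2.94 and 2.95. Egr1, an immediate early zinc finger factor, was not called (14.30 and 14.32 in EpiLCs, against 14.07 and 14.27 in the serum ESCs). Myc was the 1 gene lower (-1.01, adjusted p = 0.0019).

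Targets of p53 were higher as a group, with 11 higher and 1 lower of 14 (median 0.84). Bbc3, the pro-apoptotic protein PUMA, read 12.79 and 12.81 in EpiLCs, against 11.06 and 11.08 in the serum ESCs (1.73, SE 0.07, adjusted p = 4.2e-08). Phlda3, an inhibitor of AKT, was higher by 1.87, the stress protein Sesn1 by 1.35, the RNA-binding protein Zmat3 by 1.25, and the cell-cycle inhibitor Cdkn1a by 0.96 (11.62 and 11.72 in EpiLCs, against 10.66 and 10.74 in the serum ESCs). Tigar, a regulator of glycolysis, was the 1 gene lower (-0.83, adjusted p = 0.017), a call lost without EpiLC array 1 (0.076), EpiLC array 2 (0.055) or serum array 1 (0.12). Among 21 genes of the ATF4 and ER stress responses, 9 were higher and 3 lower. The chaperone Hspa5 (BiP) and the mTORC1 inhibitor Ddit4 were higher (1.37 and 1.44), while Ddit3 (CHOP), the pseudokinase Trib3 and the glutathione-degrading Chac1 were lower (-1.25, -1.09 and -1.39), and Atf4 itself was not called (0.17, adjusted p = 0.12). Chac1 lost its call without any 1 of the 4 arrays (adjusted p = 0.069 to 0.081).

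Interferon-stimulated genes, the antiviral program that type I interferons switch on, were lower in EpiLCs. Of 17 tested, of 21 listed, 15 were lower and 0 higher (median -2.97), and none was higher at an unadjusted p under 0.05; 8 were detected on both EpiLC arrays and 16 on both serum arrays. Usp18, the protease that removes ISG15 from proteins, read 5.07 and 5.21 in EpiLCs, not above detection, against 11.74 and 11.83 in RFP-positive serum ESCs, at least 63.9-fold lower (adjusted p = 3e-09). Ifit3, which takes part in recognising viral RNA, read 6.27 and 6.27 in EpiLCs, against 10.78 and 10.88 in the serum ESCs (-4.56, SE 0.92, adjusted p = 0.0021). The RNA sensor Ddx58 (RIG-I) read 5.87 and 6.32 in EpiLCs, against 10.31 and 10.43 in the serum ESCs (-4.27, SE 0.14, adjusted p = 1.5e-08). Ifi27 and Oasl2 differed by -5.98 and -4.30, and Lgals3bp was at least 16.5-fold lower. Irf1, an interferon-response factor, and the tethering protein Bst2 were not called (-0.14 and -0.36). The mean level over the 17 was 7.03 and 7.07 on the EpiLC arrays, against 9.94 and 9.96 on the arrays of RFP-positive serum ESCs; it was 8.37 and 8.38 in 2i and 8.57 and 8.58 in MEFs. Usp18 read 5.53 and 5.71 in 2i, not above detection, as in EpiLCs. It averaged 6.91 in MEFs, below the serum ESCs, whereas Ifi27 averaged 12.7 and Lgals3bp 11.8 there, above them. The cells were sorted for reporter fluorescence, and the mean level of the fibroblast markers was lower in EpiLCs. The part of fibroblasts in these falls was not tested.

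The interferon-stimulated response element, a promoter motif known from such genes, was looked for in the promoters of this list, since its members moved together. The motif searched was GAAA, any 2 bases (NN) and GAAA again, on both strands, overlapping matches counted, in the 250 bases before and 50 after each start (RefSeq, build GRCm38.p6). It was present for 8 of the 14 genes with a promoter entry (57.1%), against 1079 of all 27025 genes with one (3.99%). Since the motif is known from such genes, this share describes the list and not why its members were lower in EpiLCs. Of the 8, Bst2 was not called. The promoters of Ifit3 and of 2 called genes chosen after their values were seen, Isg15 (the ubiquitin-like protein itself) and Rsad2 (viperin), are printed 5′ to 3′ on the gene's strand, 25 bases to each side of the matches, with the matches in capitals. They are chr19:34583348-34583441 (+), chr4:156200850-156200921 (-) and chr12:26456538-26456597 (-).
Ifit3: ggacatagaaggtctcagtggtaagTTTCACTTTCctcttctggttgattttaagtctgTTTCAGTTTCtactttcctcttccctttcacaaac
Isg15: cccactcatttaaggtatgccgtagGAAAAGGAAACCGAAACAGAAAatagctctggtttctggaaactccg
Rsad2: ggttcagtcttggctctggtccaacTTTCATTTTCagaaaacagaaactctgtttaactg
Ifit3 holds 2 matches, Isg15 3 overlapping ones and Rsad2 1, and TTTC-rich runs are the motif on the other strand. Isg15 read 6.05 and 5.79 in EpiLCs, against 9.59 and 9.45 in the serum ESCs (-3.60, adjusted p = 5.3e-07), and Rsad2 was at least 4.09-fold lower (adjusted p = 6.5e-06). A match describes the letters and is not evidence of binding.

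Secreted inflammatory and acute-phase genes were mostly lower. Of 14 tested, 9 were lower, 1 (Slpi) was higher and 4 were not called (median -1.72), with a mean level over the list of 6.26 and 6.13 on the EpiLC arrays, against 8.13 and 8.14 on the serum arrays. The chemokine Ccl7 was detected on neither EpiLC array and read 11.30 and 11.22 in RFP-positive serum ESCs, at least 44.4-fold lower (adjusted p = 0.0012), and averaged 13.3 in MEFs. The matrix metalloproteinases Mmp3 and Mmp10 and the chemokine Ccl2 were also below detection in EpiLCs, at least 25.1-fold, 18.7-fold and 10.8-fold lower. The neutrophil chemokine Cxcl1 differed by -5.00 (SE 0.80, adjusted p = 5e-04). Mmp3 averaged 8.72 in MEFs, below the 10.42 and 10.45 of the serum ESCs, whereas Ccl7 was above them; the fibroblast markers given earlier were lower in EpiLCs on the same arrays, and both populations were sorted for reporter fluorescence, and the part that fibroblasts had in these falls was not tested. In antigen presentation, 1 gene was higher and 3 lower of 10. The peptide transporter Tap1 was higher (7.44 and 7.27 in EpiLCs, against 5.79 and 5.43 in the serum ESCs; 1.74, adjusted p = 6.8e-05), and without EpiLC array 1, EpiLC array 2 or serum array 1 only 1 was lower.

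**Figure D3:**
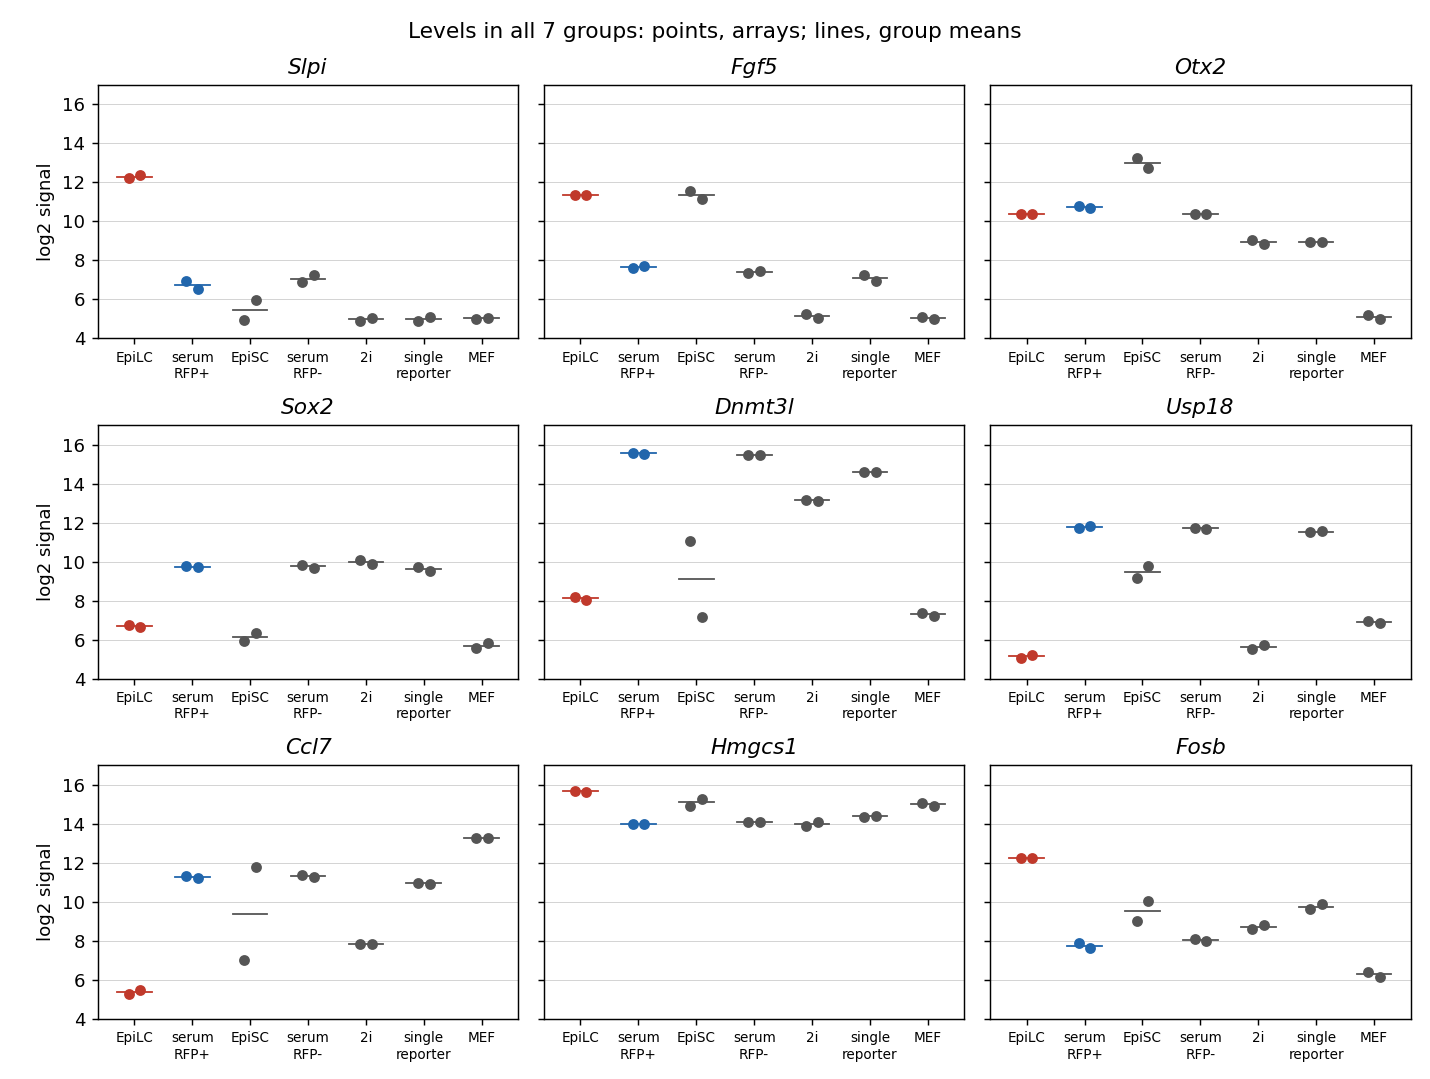
Log2 signal of 9 genes in all 7 groups, points for arrays and lines for group means, EpiLCs in red, RFP-positive serum ESCs in blue and the other groups in grey. Slpi is at 12.23 and 12.36 in EpiLCs and at most 7.25 elsewhere. Usp18 and Ccl7 are near the floor in EpiLCs, and Usp18 is near it in 2i as well. The 2 EpiSC arrays are apart for Dnmt3l and Ccl7.

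Genes of cholesterol and fatty acid synthesis were higher in EpiLCs nearly throughout. Of 21 tested, of 27 listed, 19 were higher and 0 lower (median 0.94); at an unadjusted p under 0.05 none was lower. Hmgcs1, the synthase that supplies HMG-CoA to the pathway, read 15.70 and 15.64 in EpiLCs, against 14.01 and 13.99 in RFP-positive serum ESCs (1.67, SE 0.12, adjusted p = 2.2e-06). Msmo1 and Dhcr7, late sterol enzymes, were higher by 1.68 and 1.44, Fdps, which makes farnesyl diphosphate, by 1.52, the cholesterol carrier Stard4 by 1.65 and the desaturase Scd1 by 1.53. Acly, which makes cytosolic acetyl-CoA, and the fatty acid synthase Fasn were the 2 not called (0.17 and 0.12). The mean level over the 21 was 11.29 and 11.30 on the EpiLC arrays, against 10.29 and 10.31 on the arrays of RFP-positive serum ESCs. Similar levels were read in 2i (11.26 and 11.34) and MEFs (11.27 and 11.30), so the EpiLC level was not particular to EpiLCs. EpiSCs were at 10.96 and 11.10, RFP-negative serum ESCs at 10.3 and 10.3, and single-reporter serum ESCs at 9.84 and 9.78. The sterol regulatory element TCACNCCAC was searched on both strands in the same windows. It was found for 1 of the 16 genes with a promoter entry (6.25%), Hmgcs1, against 388 of 27025 genes (1.44%). It lies in chr13:119690189-119690247 (+), printed with the match in capitals because Hmgcs1 is among the largest rises of the list.
Hmgcs1: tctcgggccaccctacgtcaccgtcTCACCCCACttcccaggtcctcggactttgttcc

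Carbon metabolism showed no shared direction. Glycolysis gave 6 higher and 2 lower of 15 (median 0.04). The glucose transporters Slc2a1 and Slc2a3 were higher by 1.08 and 0.53, while the kinase Pdk1, which restrains pyruvate entry into mitochondria, read 10.15 and 10.13 in EpiLCs, against 12.33 and 12.41 in the serum ESCs (-2.23, adjusted p = 5.1e-05), and the phosphofructokinase Pfkp differed by -2.09. Tpi1 and the lactate exporter Slc16a3 were higher (0.73 and 1.64), each with a dimmer second probe near the floor that was not called. Oxidative phosphorylation gave 7 higher and 5 lower of 22, near the background of all genes, with the cytochrome oxidase subunit Cox7a1 at -1.0 and the succinate dehydrogenase subunit Sdhd at 0.79; without EpiLC array 2 or serum array 1 it was 4 higher.

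Cell-cycle genes gave 6 higher and 7 lower of 20 (median 0.01). Cyclin D2, Ccnd2, read 12.12 and 12.11 in EpiLCs, against 10.21 and 9.95 in the serum ESCs (2.04, SE 0.31, adjusted p = 0.00035), whereas Ccnd3 and Ccne1 were lower (-0.81 and -0.98). Chromatin and Polycomb genes were lower in 10 of 20 and higher in 3. Eed, a core subunit of PRC2, read 11.45 and 11.57 in EpiLCs, against 12.70 and 12.79 in the serum ESCs (-1.24, SE 0.09, adjusted p = 2.2e-06). The PRC2-associated Mtf2 and Epop differed by -1.13 and -1.34, Jarid2 was at least 2.39-fold lower, and Kdm6b, which removes the mark that PRC2 writes, was higher by 1.50 (adjusted p = 3.1e-05). Without EpiLC array 2 or serum array 2 the lower count was 6. Iron, metallothionein and redox genes gave 10 lower and 4 higher of 19 (median -0.40), led by the peroxidase Gpx2 (-3.00, adjusted p = 3.7e-05) and metallothionein Mt2 (8.46 and 8.47 in EpiLCs, against 11.04 and 10.86 in the serum ESCs; -2.49, adjusted p = 4e-07). The iron exporter Slc40a1 and the transferrin receptor Tfrc were both lower (-1.65 and -1.38) and the iron importer Slc11a2 higher (1.36).

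The remaining lists were small or mixed. Imprinted genes gave 5 higher and 4 lower of 15, with Dlk1, a Notch-family ligand, at -1.52 (adjusted p = 4.2e-05) and the splicing factor gene Snrpn at 0.69 (adjusted p = 0.00017); without EpiLC array 1 or serum array 1 there were 3 higher, and without serum array 2 there were 2 lower. Mest was detected on none of the 4 arrays. Retinoid genes gave 1 higher and 2 lower of 9, with the receptor Rarg at -1.14 (adjusted p = 9.3e-07). The 1 higher, Crabp2 (0.77, adjusted p = 0.046), lost its call without any 1 of the 4 arrays (0.074 to 0.2), and the lower count was 1 without EpiLC array 2 or serum array 2 and 3 without EpiLC array 1. Of 4 tested sex-linked genes 2 were lower. Xist, also tested, was not called but was higher at an unadjusted p under 0.05 in limma. Eif2s3y, on the Y chromosome, was detected on both serum arrays (6.29 and 6.24) and neither EpiLC array, at least 1.39-fold lower (limma, adjusted p = 1.4e-05). It averaged 12.1 in MEFs and 7.46 in single-reporter ESCs, and was not detected in 2i. Why Eif2s3y differed was not tested. Uty lost its call without EpiLC array 2 (difference -0.33) or serum array 2 (-0.23).

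**Figure D4:**
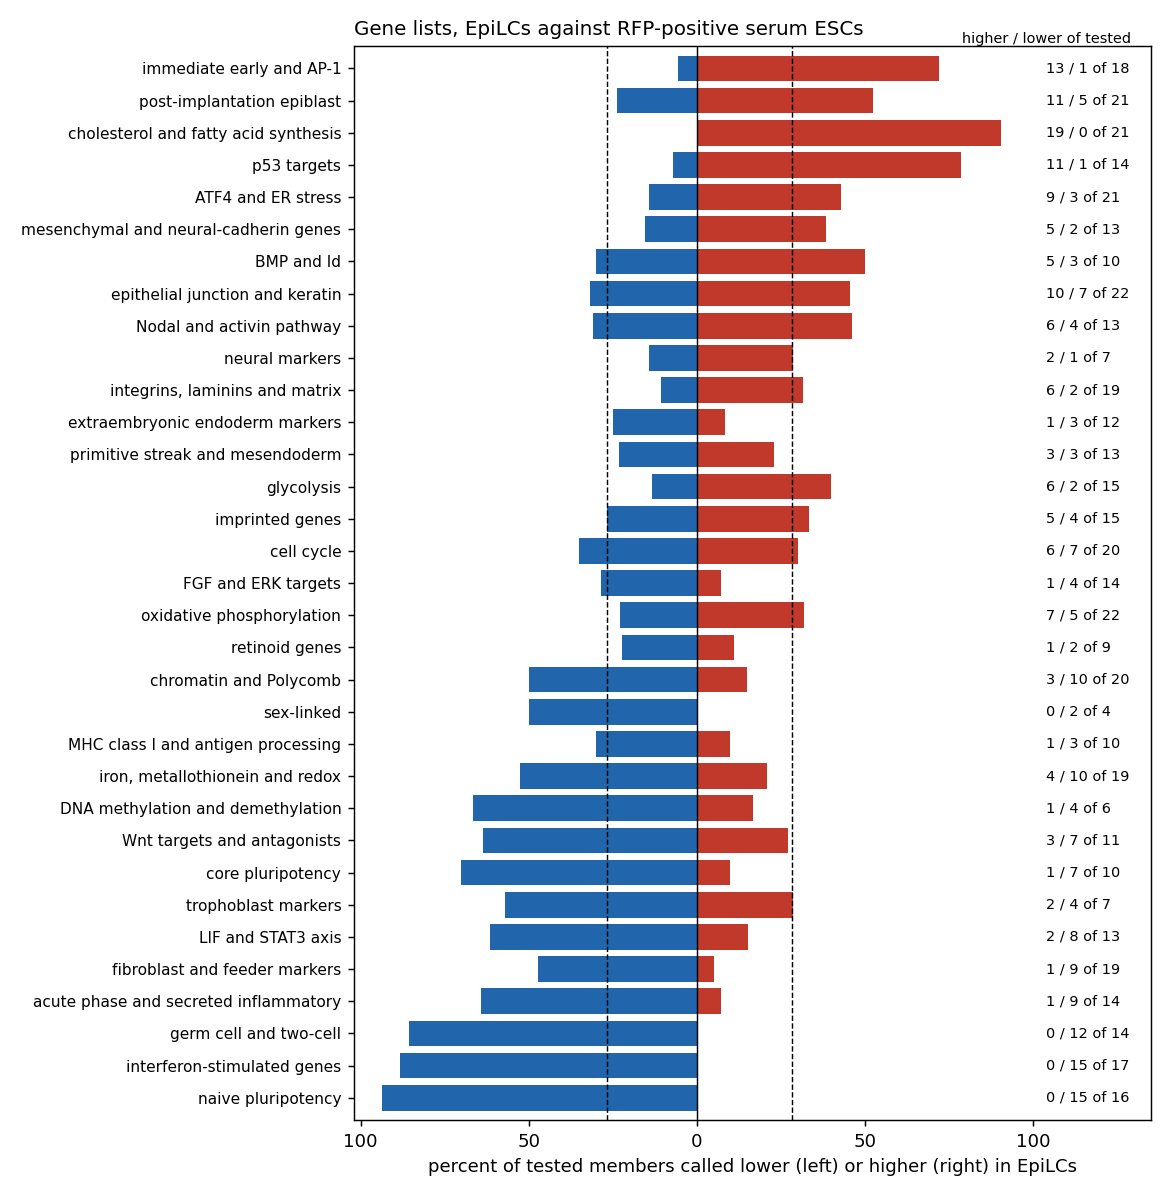
Percent of tested members of each of 33 gene lists called lower (blue, left) or higher (red, right) in EpiLCs, with counts at the right; dashed lines mark the shares over all genes, 26.7% lower and 28.3% higher. Lists are ordered by median difference, from naive pluripotency at the bottom (-3.59) to immediate early genes at the top (1.02).

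The 15 largest rises among called genes that both EpiLC arrays detected ranged down to 3.43 and include Fosb, Fgf5, Nes and keratins described above. Slpi, secretory leukocyte protease inhibitor and a member of the inflammatory list, led with 12.23 and 12.36 in EpiLCs, against 6.93 and 6.53 in RFP-positive serum ESCs (5.57, SE 0.28, adjusted p = 2.4e-07). Chst1, a sulfotransferase of keratan sulfate, read 12.41 and 12.49 in EpiLCs, against 7.02 and 7.22 in the serum ESCs (5.33, SE 0.34, adjusted p = 9.6e-07). Svop, a transporter-like protein of synaptic vesicles, read 11.43 and 11.47 in EpiLCs, against 6.63 and 6.43 in the serum ESCs (4.91, SE 0.11, adjusted p = 2e-09). In each the EpiLC arrays were far above both serum arrays. The insulin receptor substrate Irs2, the AMPK-related kinase Nuak1, Fndc3c1, the leukotriene receptor Cysltr1 and the phosphatase subunit Ppp4r4 were higher by 3.77, 3.67, 3.65, 3.51 and 3.43, and Slc22a23, an orphan solute carrier, was detected on neither serum array and at least 12.0-fold higher.

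After Dnmt3l and Usp18, the largest falls included genes of oocytes and embryos and several with other known sites of expression. Cpsf4l, related to a polyadenylation factor, was below detection in EpiLCs and read 11.62 and 11.75 in the serum ESCs, at least 59.6-fold lower (adjusted p = 1.7e-07). The keratin Krt42 and the aquaglyceroporin Aqp3 were below detection in EpiLCs too, at least 42.0-fold and 28.8-fold lower. Ooep, an oocyte-expressed protein, averaged 8.58 ± 0.06 in EpiLCs, against 14.02 ± 0.04 in the serum ESCs (SD, n = 2 each; difference -5.44, SE 1.0, adjusted p = 0.0012). The lysosomal membrane protein Laptm5 read 7.38 and 7.55 in EpiLCs, against 12.88 and 12.76 in the serum ESCs (-5.36, SE 0.10, adjusted p = 1.3e-09). Mylpf, a fast-muscle myosin light chain, read 6.68 and 6.71 in EpiLCs, against 12.56 and 12.55 in the serum ESCs (-5.86, adjusted p = 7.8e-10).

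To show where EpiLCs differ from another epiblast-type culture, their change was set against that of EpiSCs relative to GFP-positive RFP-negative serum ESCs, a comparison that shares no array with it and in which 6832 genes (65.2%) were called. Of 10481 genes, 3864 were called in the same direction in both (1963 higher and 1901 lower) and 562 in opposite directions. The difference between the 2 changes, EpiLC change minus EpiSC change, was itself called for 4349 genes (41.5%), positive for 2205 (21%) and negative for 2144 (20.5%). The EpiSCs were derived separately from epiblasts, so origin and state cannot be told apart in it.

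Across the 21 post-implantation epiblast genes the difference was called negative for 13 and positive for 0 in limma (12 and 2 without EpiSC array 1), beside 20.5% and 21% of all genes. Fgf5 was not among them: its EpiLC change of 3.71 differed from the EpiSC change of 3.94 by -0.23 (SE 0.20, adjusted p = 0.38). For Otx2 the changes parted, with -0.34 in EpiLCs and 2.63 in EpiSCs, where it read 13.27 and 12.74 (difference -2.97, SE 0.21, adjusted p = 7.9e-06). Fgf8, Fgf15 and Car14 also changed by less in EpiLCs (differences -2.23, -2.65 and -2.57, adjusted p = 0.00034, 9e-04 and 0.00019). Pou5f1, which fell by 0.71 in EpiLCs, changed by 0.03 in EpiSCs (difference -0.74, SE 0.18, adjusted p = 0.0082).

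Of the 17 interferon-stimulated genes tested, the difference was called negative for 11 and positive for 0 (limma; without EpiSC array 1, 13 and 1). Over all genes the shares were 20.5% negative and 21% positive, the background also for the other lists in this paragraph. Usp18 changed by -6.65 in EpiLCs and -2.24 in EpiSCs, where it was detected at 9.17 and 9.76 (difference -4.40, SE 0.23, adjusted p = 1.4e-06). Ifi27 and Oasl2 differed by -4.99 and -2.96 between the changes (adjusted p = 8.7e-07 and 3.6e-06). Stat3 fell further in EpiLCs too (-1.88, adjusted p = 1.6e-05). For Lefty2 the difference was -2.42 (adjusted p = 0.02), a call lost with only the compared groups fitted (adjusted p = 0.072) and without EpiLC array 1 or any 1 of the 4 serum arrays (adjusted p = 0.051 to 0.057), and its difference was -1.36 without EpiSC array 1 and -3.48 without EpiSC array 2. Among the 16 naive genes 4 differences were positive and 0 negative, 8 positive without EpiSC array 1 and 5 negative without EpiSC array 2. With all arrays kept, the positive share of the naive genes was near the 21% of all genes. For Gdf3 and the naive gene Dppa3 the fall was the smaller one in EpiLCs (3.14 and 1.72, adjusted p = 7.8e-05 and 3.7e-05 in limma). Dppa3 was detected on neither EpiSC array (5.10 and 5.01), so the size of its difference rests on signal below detection. Cysltr1, Fosb and Irs2 rose more in EpiLCs (3.42, 3.03 and 2.53). Of the 21 genes of the ATF4 and ER stress responses, 13 differences were positive and 1 negative (0 to 3 negative with 1 of the 8 arrays left out, 3 without EpiSC array 1). Dnmt3l was not called for a difference (-1.08, SE 1.27, adjusted p = 0.53), and the sign turned on which EpiSC array was kept: 0.87 without EpiSC array 1 and -3.02 without EpiSC array 2.

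**Figure D5:**
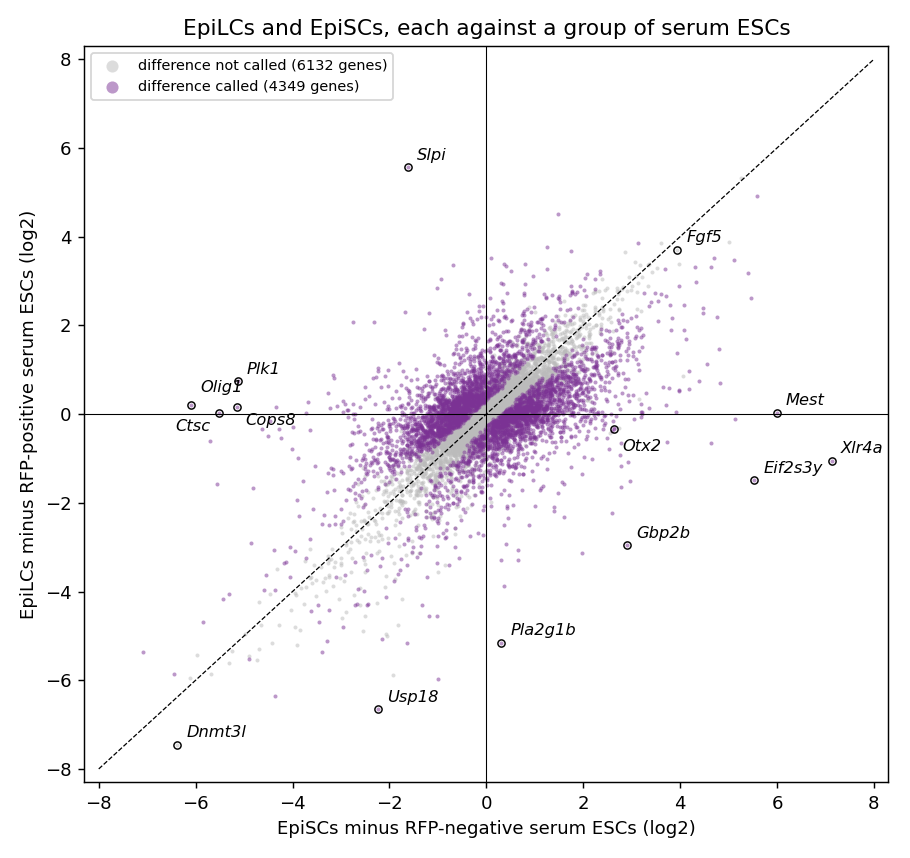
Change of 10481 genes in EpiLCs against RFP-positive serum ESCs (vertical axis) and in EpiSCs against RFP-negative serum ESCs (horizontal axis), log2; purple points were called for the difference between the changes, and the dashed line marks equal changes. Fgf5 lies near that line, Otx2 to its right at an EpiSC change of 2.63, and Slpi at the upper left.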

How the data were processed

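Expression was measured on Illumina mouse bead arrays. Per the file headers, the deposited table holds a signal intensity and a detection p-value for each of 25697 probes on each of 14 arrays, and gives the signals as non-normalized; GenomeStudio 2011.1 is named in the submitters' processing notes. The authors' processed log2 values equal a quantile normalization without background correction to within 5e-07, which ties each intensity column to its sample.

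The intensities were background-corrected with negative controls inferred from the detection p-values, offset by 16, quantile-normalized and put on the log2 scale (neqc, limma 3.58.1, R 4.3.3). Symbols came from the platform annotation, of which 23978 probes had 1 and 1719 none. Probes were kept if some group had detection p-values below 0.05 on both its arrays, and each gene was represented by its brightest kept probe, giving 10481 genes. One limma model of group means over all 14 arrays (7 residual and 2.5 prior degrees of freedom) gave all comparisons, with Benjamini-Hochberg adjustment over all genes. Where no probe of a gene was detected in the dimmer group, a fold is a lower bound against the dimmest detected signal and is written "at least". The number of arrays limits the precision. Samples were grouped by their titles, and replicate numbers were not used to pair arrays.

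Named genes are the 15 largest rises and falls among called genes, up to 6 called genes with the largest change in each of 33 gene lists with genes of those lists that were not called, the 5 largest positive and negative differences from the EpiSC comparison, and Pou5f1. The rises and falls were ranked among called genes detected on both arrays of the brighter group. Where a sentence names the members behind a count of 5 or fewer, they were chosen after their values were seen. The members, lists and rules were chosen with earlier results of these data known. Some genes are in more than 1 list (615 memberships of 576 genes), so the counts of different lists are not independent. Promoter sequences are from RefSeq (GRCm38.p6). Tested on simulated data for the main comparison over 10481 genes, the model recovered 33% of changes of 0.5 and 75% of changes of 1 (log2). Only 100 changes of each size were planted. In the data 5765 genes were called, which makes the adjusted threshold less strict, so these shares may not carry over to it. Alternatives covered background correction, scaling, detection filters, all probes, fewer groups, an intensity trend, a replicate block and leaving out each array.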

Additional observations from a re-analysis of the deposited data

Results flagged for a closer look

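Each result here is a gene whose change in EpiLCs, relative to RFP-positive serum ESCs, differed from the change in EpiSCs, relative to RFP-negative serum ESCs, in a test of that difference in limma; they are the 5 largest positive and 5 largest negative differences among 4349 called. Slpi had the largest positive difference, 7.18 (adjusted p = 2e-06): it changed by 5.57 in EpiLCs and -1.61 in EpiSCs. Olig1, a neural helix-loop-helix factor, differed by 6.30 (adjusted p = 5.3e-06); it read 12.04 and 12.13 in EpiLCs, against 11.89 and 11.86 in RFP-positive serum ESCs, and 6.64 and 5.42 in EpiSCs, against 12.15 and 12.10 in RFP-negative serum ESCs. The mitotic kinase Plk1 differed by 5.87 (adjusted p = 3.5e-09), with changes of 0.73 in EpiLCs and -5.14 in EpiSCs. Plk1 had 1 kept probe, which read 7.95 and 7.90 in EpiSCs, below its mean of 10.6 in MEFs, and no second probe was there to check it. The lysosomal protease Ctsc differed by 5.54 (adjusted p = 2.2e-08) and was detected on neither EpiSC array. Cops8, a subunit of the COP9 signalosome, differed by 5.31 (adjusted p = 7.1e-06), with changes of 0.15 in EpiLCs and -5.15 in EpiSCs, also on 1 kept probe. In 4 of these 5 genes the larger change was the one in EpiSCs.

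On the negative side, Xlr4a, an X-linked gene of a lymphocyte-regulated family, differed by -8.18 (adjusted p = 7.3e-08); it was at 13.80 and 13.05 in EpiSCs, against 6.35 and 6.24 in RFP-negative serum ESCs, and below detection in EpiLCs. Eif2s3y, on the Y chromosome, differed by -7.01 (adjusted p = 2.5e-08) and was at 11.69 and 12.03 in EpiSCs, beside a mean of 12.1 in MEFs. The imprinted gene Mest differed by -5.96 (adjusted p = 6.5e-07), at 11.03 and 11.58 in EpiSCs and detected on none of the arrays of the other 3 groups compared. The interferon-induced GTPase Gbp2b differed by -5.86 (adjusted p = 7.1e-07), with a change of 2.90 in EpiSCs and a level below detection in EpiLCs. Pla2g1b, a secreted phospholipase, differed by -5.46 (adjusted p = 0.00017), with changes of -5.15 in EpiLCs and 0.31 in EpiSCs. All 10 differences were called with any 1 of the 8 arrays left out. The EpiSCs were derived separately from epiblasts, so origin and state cannot be told apart.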

How the results depend on the processing

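The count of called genes stayed within 1.5 times its value under all alternatives, while the count of genes changed at least 2-fold was 535 higher and 527 lower without background correction and with the authors' processed values, against 1001 and 962; the cause was not tested. Leaving out 1 array gave 2470 to 2519 genes higher, 2266 to 2297 lower, 1001 to 1020 higher and 916 to 938 lower by at least 2-fold, and 1760 to 2659 positive and 1676 to 2676 negative differences from the EpiSC comparison. The replicate numbers did not pair the samples (the deviations of the EpiLC and RFP-positive serum arrays with the same number correlated at -0.032), and with the replicate block 2978 genes were higher and 2759 lower, and 2184 differences were positive and 2115 negative; no named gene changed its call. Of 165 named genes that were called, 149 kept direction and call under every alternative, and of 27 that were not called, 13 did; 14 others were called or turned sign under at least 1, Lin28a, L1td1, Nodal, Cdh1 and Acly among them. Median scaling turned the sign of Ctsc to -0.071 and of Fst to -0.013. Leaving out 1 array turned the sign of differences that had not been called, which ranged from -0.106 to 0.141 for Ctsc, -0.0112 to 0.108 for Fst, -0.0775 to 0.146 for Mest and -0.104 to 0.538 for Sfrp2, and that of the Dnmt3l difference from the EpiSC comparison, from -3.02 to 0.87. Arrays give a bound, not a level, for the genes below detection.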
